A study of Arabidopsis thaliana with 6 samples.

Results

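The genes described here are malectin-like leucine-rich repeat receptor kinases of Arabidopsis thaliana, a family of cell-surface proteins classed as subfamily I of the leucine-rich repeat kinases. The members are a list of 38 loci set by family and not by a threshold on measured values, though the family was picked with earlier results of these data known. Of these, 9 had a probe set of their own that the probe annotation assigns to 1 locus, and the other 29 had no probe set named for them here and were not analysed. All values therefore concern AT1G51790, AT1G51805, AT1G51820, AT1G51890, AT1G51910, AT3G46340, AT5G59650, AT5G59670 and AT5G59680. The deposited table held 15236 probe sets, and the 15177 that are not Affymetrix controls were tested. Shares of all probe sets given below are of these. Whether the table holds every probe set of the array was not checked.

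Wild-type Col-0 plants were 3 weeks old when their attached leaves were infiltrated, through a syringe without a needle, with an artificial sucrose and amino acid diet. In the saliva group the diet had been fed on for 24 h by green peach aphids (the species Myzus persicae, here a tobacco-adapted red lineage raised on cabbage), and in the control group it came from cups with 0 aphids. The labels' protocols state that feeding cups held 50 aphids on 50 µL of diet and that the diet collected for infiltration was that of 20 aphids. Leaves were harvested at 24 h, with 18 leaves of 6 plants (3 per plant) pooled into a sample. Plants of both groups shared pots, the experiment was done 3 times as independent biological replicates, and each of the 6 samples was read on 1 Affymetrix ATH1 array, so that saliva and control can be compared within each repeat. Both groups were infiltrated, no untreated leaf was sampled, and the saliva came in diet and not from aphids on the leaf.

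Kinases of this family carry a malectin-like domain and leucine-rich repeats outside the cell, a membrane-spanning stretch and a kinase inside. The best known is FRK1 (AT2G19190), whose transcript is induced by the bacterial flagellin peptide flg22 and is widely used as a reporter of pattern-triggered immunity, the defence started when surface receptors detect foreign or damage-derived molecules. IOS1 (AT1G51800) is needed for full susceptibility to downy mildew and associates with pattern receptors. FRK1, IOS1, MEE39 (AT3G46330), RHS6 (AT1G51880) and RHS16 (AT4G29180) were all among the members without a named probe set here. FRK1 and IOS1, the members described above for immunity, were therefore not read under their own names.

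Many of these genes sit beside each other in the genome. In the gene order of assembly TAIR10.1, 11 listed members lie within a stretch of 15 coding genes on chromosome 1, from AT1G51790 to AT1G51910, and 5 of those 11 were measured. On chromosome 5, AT5G59650, AT5G59670 and AT5G59680 lie within 4 coding genes and all 3 were measured. On chromosome 3, 1 of 5 neighbouring members was measured, AT3G46340. The 9 probe sets all carry the plain suffix that Affymetrix gave to sets designed for a single transcript, but signal from closely similar neighbours was not tested here.

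The arrays were on a like scale, with medians between 139.2 and 146.8 and lowest values between 3.23 and 3.28 in units of normalized intensity. Leaf photosynthesis markers were bright on every array: RCA, the activase of the carbon-fixing enzyme Rubisco, lay between 26603 and 28215. In the list of leaf markers 4 of 11 genes were measured, with a median log2 difference, saliva minus control, of -0.081. Of these, 0 passed the test in either direction, beside 0% of all probe sets. PSAN, PSBW and LHCB4.1, of the photosystems and their antenna, had differences of -0.15 ± 0.057, -0.091 ± 0.019 and -0.070 ± 0.022 (SD, n = 3 pairs), each lower in all 3 pairs, as were 15.6% of all probe sets. Saliva values of PSAN and PSBW lay below all controls, as did 8.58% of all probe sets, and RCA had 0.00087 ± 0.044 with mixed signs. Root, flower and pollen, and vascular markers had 0 named probe sets, so the presence of those cells was not checked. In a leaf extract, fewer cells of a type and less RNA per cell cannot be told apart.

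None of the 9 members passed the test for a difference between saliva and control. In the limma fit with the repeat as a block, 0 members were higher and 0 lower at a Benjamini-Hochberg adjusted p under 0.05, and over all probe sets the share called was also 0%. At an unadjusted p under 0.05 there was 1 member, AT1G51890, on the higher side, where 5.59% of all probe sets were higher and 5.44% lower. The median difference over the 9 members was 0.036 on the log2 scale, against -0.00056 over all probe sets. Mean differences were above 0 for 6 members and below 0 for 3, and 49.8% of all probe sets were above 0.

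AT1G51890 had the widest difference of the 9. It was read at 4.55 to 12.4 times the lowest intensity of an array, below the array medians. Its intensities were 25.56, 14.84 and 34.76 in the control leaves of repeats 1, 2 and 3, and 37.61, 30.5 and 40.45 in the saliva leaves of the same repeats. Saliva leaves were above their own controls in all 3 repeats, but the groups overlapped, because the control of repeat 3 exceeded the saliva sample of repeat 2. Pair differences were 0.56, 1.04 and 0.22, which correspond to 1.47-fold, 2.06-fold and 1.16-fold. The mean was 0.61 ± 0.41 (SD, n = 3 pairs), with a 95% interval of 0.13 to 1.08 from the limma fit, an unadjusted p of 0.0235 and an adjusted p of 0.404. The interval is for this gene alone and takes no account of the number of genes tested. It also comes from the fit with the repeat as a block, and without the block the limma adjusted p was 0.524. A difference of the same sign in all 3 repeats was seen in 32.3% of all probe sets, 16.7% higher and 15.6% lower.

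For AT1G51890 the control leaves varied more widely than the saliva leaves. Control values spanned 1.23 on the log2 scale, and the saliva values spanned 0.41. Control leaves of repeat 2 were the lowest of the 6 samples and gave the widest pair difference, and control leaves of repeat 3 were the highest of their group and gave the narrowest. Without repeat 2 the mean difference was 0.39, and without repeat 1, whose raw file names stand apart from the others, it was 0.63. Of all probe sets, 2.75% had a larger absolute mean difference and 88.2% had a smaller SD between pairs. In the authors' deposited table this gene had a fold change of 1.44, a paired false discovery rate of 0.125 and an unpaired rate of 0.525. That fold change equals the ratio of the mean intensities, an unlike measure to the mean log2 difference, which corresponds to 1.52-fold. The paired rate was under 0.05 for 0 of the 9 members in the authors' deposited table, and for 3.05% of all probe sets.

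**Figure D1:**
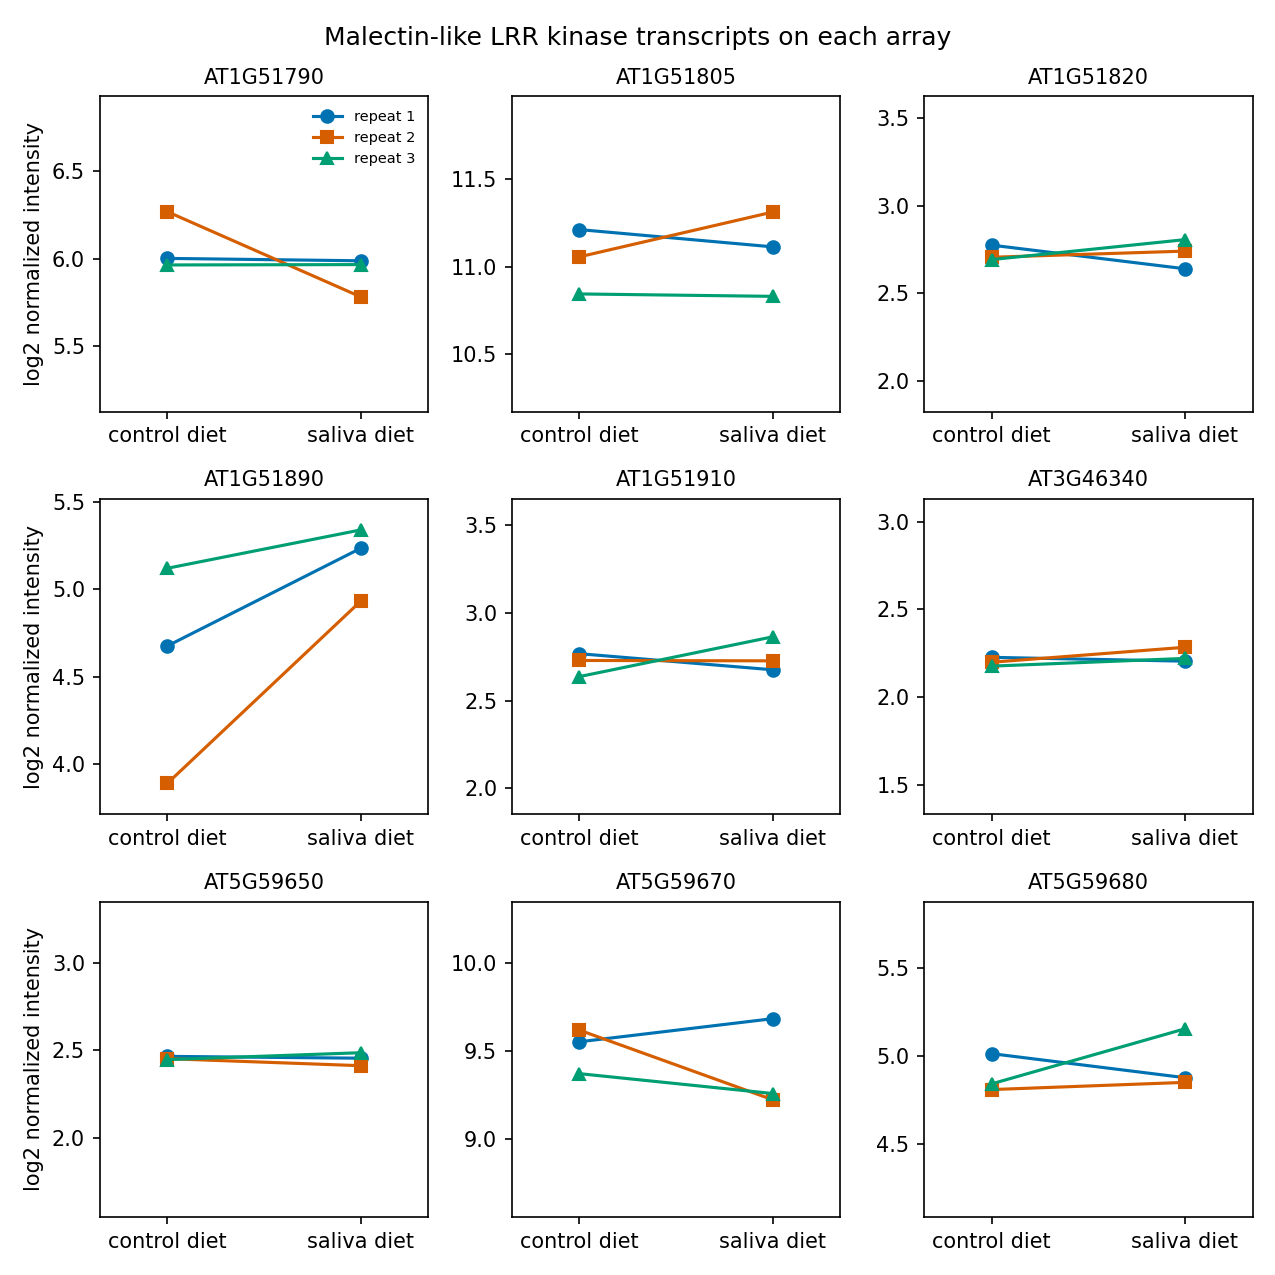
Log2 normalized intensity (vertical axis) in control and saliva leaves (horizontal axis) for each measured kinase, with 1 line per repeat and the same vertical span of log2 units in each panel. All 3 lines rise for AT1G51890, most steeply in repeat 2, from 14.84 to 30.5 before the log2 step, and the lines of AT1G51820, AT1G51910, AT3G46340 and AT5G59650 lie nearly flat close to the lowest values of the arrays.

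The other 4 members measured in the stretch on chromosome 1 had pair differences of mixed sign. AT1G51790 read 64.04, 77.05 and 62.4 in the controls and 63.44, 55.02 and 62.49 in the saliva leaves of repeats 1, 2 and 3. Only repeat 2 set the samples apart, with a pair difference of -0.49 against -0.014 and 0.0021 in the other repeats, and the groups overlapped. The mean difference was -0.17 ± 0.28 (limma adjusted p = 0.687), and without repeat 2 it was -0.0058.

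AT1G51805 was bright on every array, at 559 to 780 times the lowest intensity. It read 2373.18, 2130.86 and 1839.88 in the controls and 2216.58, 2543.56 and 1822.43 in the saliva leaves. Both samples of repeat 3 were the lowest of their groups and differed from each other by only -0.014 on the log2 scale, so the repeats lay further apart than the treatments. Pair differences in repeats 1 and 2 were -0.098 and 0.26. The mean difference was 0.048 ± 0.18, with a limma 95% interval of -0.23 to 0.32 (adjusted p = 0.923), and without repeat 2 the sign turned, at -0.056.

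AT1G51820 and AT1G51910 were read near the bottom of the scale, at no more than 2.14 and 2.23 times the lowest intensity of an array. AT1G51820 had 6.84, 6.52 and 6.46 in controls and 6.23, 6.68 and 6.99 in saliva leaves. AT1G51910 had 6.81, 6.63 and 6.22 in controls and 6.39, 6.62 and 7.28 in saliva leaves. In each gene repeat 3 held the highest saliva value, and the groups overlapped. Mean differences were 0.0047 ± 0.13 and 0.044 ± 0.16, with limma adjusted p of 1.00 and 0.926. Both means fell below 0 without repeat 3, at -0.050 and -0.047. Values this dim carry little information on the transcript, and no detection call accompanied them.

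AT3G46340 on chromosome 3 was dimmer still, at 1.40 to 1.49 times the lowest intensity. Its controls read 4.68, 4.59 and 4.52 and its saliva leaves 4.61, 4.87 and 4.66. The samples overlapped, with a mean difference of 0.036 ± 0.054 and a limma adjusted p of 0.921. It was 0.011 without repeat 2 and 0.065 without repeat 1.

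The 3 members on chromosome 5 gave readings from dim to bright. AT5G59650 stayed within 1.63 and 1.72 times the lowest intensity, with 5.52, 5.47 and 5.45 in controls and 5.48, 5.32 and 5.6 in saliva leaves. Its mean difference was -0.0038 ± 0.040 (limma adjusted p = 1.00), and the groups overlapped. Without repeat 2 the sign turned, at 0.014.

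AT5G59670 was bright, with 750.77, 786.16 and 661.83 in controls and 822.64, 596.96 and 611.85 in saliva leaves. Saliva leaves of repeats 2 and 3 were the lowest of the 6 samples, while those of repeat 1 were the highest. Pair differences were accordingly 0.13, -0.40 and -0.11, with a mean of -0.13 ± 0.26, a limma 95% interval of -0.47 to 0.21 and an adjusted p of 0.760. Without repeat 2 the mean was 0.0093.

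AT5G59680 had 32.3, 28.02 and 28.66 in controls and 29.37, 28.83 and 35.63 in saliva leaves, at 8.60 to 10.9 times the lowest intensity. The saliva sample of repeat 3 was the highest and the groups overlapped. Pair differences were -0.14, 0.041 and 0.31, with a mean of 0.073 ± 0.23 (limma adjusted p = 0.870), which turned to -0.048 without repeat 3. AT5G59670 and AT5G59680 are adjacent, with 0 coding genes between them, and their pair differences had opposite signs in all 3 repeats. The other 5 pairs of consecutive measured members on chromosomes 1 and 5 agreed in sign in 1 or 2 of the 3 repeats. These signs were counted without a test, and no share over other gene pairs was taken. Several of the signs come from the dim members.

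**Figure D2:**
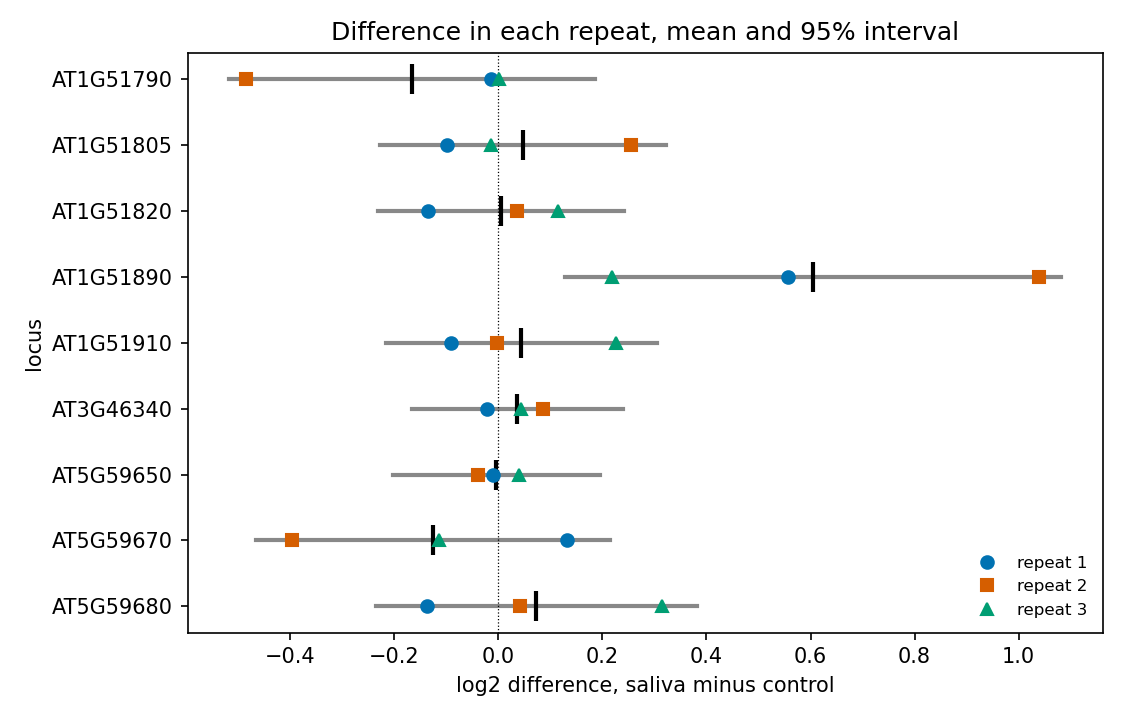
Log2 difference between saliva and control (horizontal axis) for each kinase (vertical axis), with 1 symbol per repeat, a tick at the mean and a grey bar for the 95% interval of the limma fit. The interval of AT1G51890 runs from 0.13 to 1.08, and those of the other members include 0.

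The differences were set beside the variation between control leaves. For all 9 members the absolute mean difference was smaller than the log2 range of the 3 controls, as it was for 75.5% of all probe sets. The saliva and control groups overlapped in all 9, so 0 members were separated in either direction. Of all probe sets 7.66% were separated with saliva higher and 8.58% with saliva lower, 16.2% together. Only AT1G51890 had 1 sign in all 3 repeats, and the other 8 members had mixed signs. The median absolute difference was 0.048 over the members and 0.11 over all probe sets, and 4 of the 9 members were those read within 3 times the lowest intensity. Among the 5 brighter members the median absolute difference was 0.13. The value over all probe sets includes dim ones, and none was taken over equally bright probe sets. These shares and medians describe the 9 probe sets and do not set the family apart from other genes.

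The limma intervals limit how large a difference these arrays could have missed in the members other than AT1G51890. For those 8 the intervals included 0 and lay within 2-fold in either direction, with the farthest bound at -0.52 for AT1G51790. Their mean differences lay between -0.17 and 0.073 and their limma adjusted p-values between 0.687 and 1.00. For the dim members a narrow interval describes the stable reading near the bottom of the scale and not the transcript.

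Counts of members above 0 were taken in each repeat, without a test. In repeat 1, 2 of the 9 members were higher in saliva leaves, beside 46.8% of all probe sets. In repeat 2 it was 5 of 9, beside 56.0%, and in repeat 3 it was 7 of 9, beside 50.8%. Member medians were -0.022, 0.035 and 0.044 in repeats 1, 2 and 3. Of the 4 dim members 0 were higher in repeat 1, 2 in repeat 2 and 4 in repeat 3, and of the 5 brighter members 2, 3 and 3 were.

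**Figure D3:**
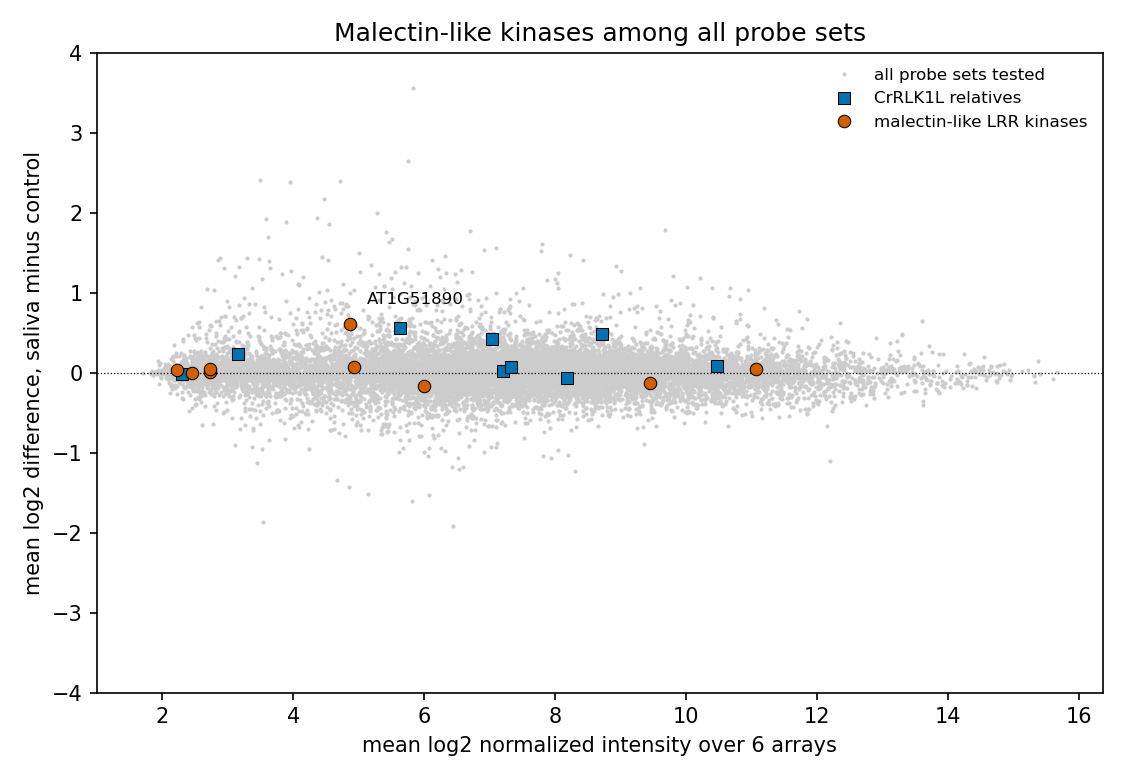
Mean log2 difference between saliva and control (vertical axis) against mean log2 intensity over the 6 arrays (horizontal axis), for all probe sets tested (grey), the 9 measured kinases (circles) and 9 malectin-like kinases of the related CrRLK1L family (squares). AT1G51890 stands at 0.61, and the other circles lie between -0.17 and 0.073.

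Genes that act with such receptors were read from lists chosen for their roles. Among pattern receptors and co-receptors 2 of 15 were measured and 0 passed the test in either direction, beside 0% of all probe sets. EFR, the receptor of a bacterial elongation factor peptide, had -0.20 ± 0.31 at intensities of 8.2 to 11.93, and -0.031 without repeat 2. These EFR readings were near the bottom of the scale, at 2.52 to 3.66 times the lowest intensity. LORE, a lectin-type receptor of bacterial fatty acid metabolites, had 0.42 ± 0.38 (limma adjusted p = 0.468), and 0.20 without repeat 3. LORE was higher in all 3 pairs, as were 16.7% of all probe sets.

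Downstream kinases and transcription factors also gave 0 calls in either direction, beside 0% of all probe sets. Of the receptor-like cytoplasmic kinases 3 of 9 were measured, with a median difference of 0.24. BIK1, which relays signals from several immune receptors, had 0.24 ± 0.25, PCRK1 had 0.28 ± 0.28 and PCRK2 had 0.038 ± 0.30. PCRK1 was higher in all 3 pairs, and BIK1 and PCRK2 had mixed signs. BIK1 had 0.39 without repeat 2, PCRK1 had 0.12 without repeat 1, and PCRK2 turned to -0.10 without repeat 2. Of the WRKY transcription factors 3 of 9 were measured, with a median of 0.22, and WRKY22, which lies downstream of flagellin perception, had -0.15 ± 0.41. WRKY22 was read at only 4.17 to 7.12 times the lowest intensity. WRKY53 had 0.24 ± 0.42 and WRKY6 had 0.22 ± 0.33. Of 13 transcripts known to be induced by microbial patterns 1 was measured, the oxidase gene FOX1, which read 4.61 to 4.78 in controls and 5.51, 15.03 and 4.78 in saliva leaves, near the lowest intensities except in saliva repeat 2. Its mean difference of 0.64 ± 0.93 was 0.11 without that repeat, and with controls at the bottom of the scale neither value measures the size of a change. Of the 10 genes of the MAP kinase cascade 0 had a named probe set.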

How the data were processed

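RNA from 6 leaf samples was read on Affymetrix ATH1 arrays, 1 per sample. The values deposited by the authors are normalized intensity on a linear scale, with a fold change (a ratio) and paired and unpaired false discovery rates (adjusted p-values), per the file headers. The submitters' processing notes name GCRMA, GCOS and limma. Their roles, and the genome build, are not given in the sources used here. Both deposited tables held equal intensities (0 cells differed), and 0 sample columns were left unused. Intensities were transformed here to log2 with no pseudocount, leaving out 59 Affymetrix controls.

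The probe annotation gave 1 gene for 8330 probe sets, several for 334 and none for 6513. Loci and symbols came from the RefSeq table of TAIR10.1, which held 8298 of the 8330. No sequence was used.

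Saliva was compared with control by limma 3.58.1 (lmFit and eBayes, R 4.3.3) over 15177 probe sets, with the replicate number as a block because plants shared pots. P-values were Benjamini-Hochberg adjusted, with a threshold of 0.05. Deviations of paired samples from their group means correlated at -0.12, 0.15 and 0.10. The fit was tested on simulated data. The simulated effects were larger than the difference of any member, so that test cannot say whether differences of the members' size would be detected. Precision is limited by the number of arrays, which have no read depth.

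Members and lists were chosen with earlier results of these data known. Genes were named by a rule: members of 1 sign in all pairs, with the smallest p, the largest difference or the brightest controls, and up to 3 genes per list by p. All 9 measured members are given in full and RCA and FER were added for their roles, which goes beyond the rule. Alternatives dropped the block, made it random or replaced it by the raw file grouping. Others set a floor at a mean log2 of 4, an intensity trend, quantile scaling, median centring, array weights or other thresholds, changed how probe sets were taken, or left out each pair.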

Additional observations from a re-analysis of the deposited data

How the results depend on the processing

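The counts of higher and lower members stayed at 0 in every fit tried at an adjusted p under 0.05 (no replicate block: 0 and 0), and at an adjusted p under 0.1. At an unadjusted p under 0.05, a looser threshold by construction, 848 probe sets were higher and 826 lower, and 1 member was higher and 0 lower. The member median of 0.036 went from -0.047 to 0.074 with a pair left out and lay between 0.021 and 0.048 in the other fits. The estimated correlation within pairs was -0.054. AT1G51890 kept its sign throughout, from 0.39 without replicate 2 to 0.80 without replicate 3, with limma adjusted p from 0.205 (array weights, difference 0.79) to 0.802 (without replicate 2), and 0.584 with the raw file grouping as a block. Array weights, which favour pair 2, moved several genes by over 1.5 times, such as AT1G51790 to -0.30, AT1G51805 to 0.14, AT5G59670 to -0.25 and BIK1 to 0.12. AT1G51820 turned to -0.0043 after quantile normalization and -0.011 after median centring. With a pair left out 6 members turned, with ranges of -0.056 to 0.12 for AT1G51805, -0.050 to 0.074 for AT1G51820, -0.047 to 0.11 for AT1G51910, -0.025 to 0.014 for AT5G59650, -0.26 to 0.0093 for AT5G59670 and -0.048 to 0.18 for AT5G59680. WRKY22 turned to 0.036 with array weights and ranged from -0.37 to 0.035 with a pair left out, and PCRK2 from -0.10 to 0.19; the cause was not tested. WRKY53 ranged from 0.011 to 0.41 and WRKY6 from 0.030 to 0.34 without a turn. The settings for genes outside the family were added after the data were seen. The floor left out 4 of the 9 members. No member had a second probe set or one shared between loci, so those alternatives changed nothing or could not be run. Dim probe sets limit what a difference near the lowest intensities can show.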

Other observations

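The CrRLK1L family is the other large group of Arabidopsis kinases with malectin-like domains outside the cell, and its members are known from cell wall sensing and growth. Of 17 listed genes 9 were measured, and 0 passed the test in either direction, beside 0% of all probe sets. At an unadjusted p under 0.05, 3 of the 9 were higher and 0 lower, beside 5.59% of all probe sets higher. The list was chosen with earlier results of these data known and was not tested as a set. THE1, which slows growth when cellulose synthesis is impaired, read 397.68, 313.51 and 361.39 in controls and 487.67, 484.5 and 522.1 in saliva leaves, and the groups did not overlap. Its difference was 0.48 ± 0.17 (SD, n = 3 pairs; limma adjusted p = 0.358). AT2G39360 (CVY1), at 0.42 ± 0.23, and AT5G24010, at 0.56 ± 0.45, also had saliva values above all controls, as 7.66% of all probe sets did, and AT5G24010 had 0.31 without replicate 2. FER, a receptor of RALF peptides, had 0.079 ± 0.077, and the median over the 9 was 0.079. Mean differences were above 0 for 7 and below 0 for 2, beside 49.8% of all probe sets above 0. The lowest was -0.069, and some of the 9 were read near the lowest intensities.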
